A study of Homo sapiens with 13 samples.

Results

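The genes described here are 39 genes of the G2 phase and of mitosis, followed in MCF10A cells during their first 480 min of stimulation after serum deprivation. They were taken by name: a probe set belonged to the group if its gene symbol in the platform annotation was that of a member, and each gene was represented by its brightest probe set over the 13 arrays. All 39 were found among 11963 genes with a probe set of 1 symbol, and all 39 were among the 7731 genes bright enough to be tested. By role they comprise 8 cyclins, CDK1 partners and CDC25 phosphatases, 7 mitotic kinases, 3 checkpoint adaptors, 4 regulators of anaphase, 5 kinesins, 5 spindle and midzone proteins, 3 centromere proteins, 3 chromosome and proliferation proteins, and the transcription factor FOXM1.

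MCF10A is a spontaneously immortalized, non-tumorigenic human mammary epithelial line. The cells were deprived of serum for 24 h in all groups. RNA was then taken from unstimulated cells (1 array), or at 20, 40, 60, 120, 240 and 480 min after EGF or after a mixture that the submitters call serum (1 array per stimulus and time). The mixture is named in the labels as horse serum, insulin, cholera toxin and hydrocortisone; doses for the time course were not given in the sources read here. No array had a replicate, so the p-values below measure only the spread between these arrays, and precision is limited by their number. One array, EGF at 20 min, carried 40 min in its description and 20 min in its title, and the title was used.

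Entry into mitosis is driven by CDK1 bound to cyclin B, which the CDC25 phosphatases switch on and which polo-like and Aurora kinases help to bring into action. The spindle checkpoint, made of BUB and MAD proteins, holds CDC20 inactive until chromosomes are attached to the spindle. CDC20 then turns the anaphase-promoting complex on securin and cyclin B, which frees separase and lets the chromatids part. The genes of these proteins are known to be transcribed late in the cell cycle, held down in resting cells by the DREAM complex and switched on in G2 by B-MYB and FOXM1 together with NF-Y. DREAM and its relatives act through a promoter element called the cell cycle homology region, and NF-Y binds CCAAT boxes. Quiescent cells given growth factors generally reach these phases only many hours later, after passing through G1 and S.

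Promoters are shown to let these elements be seen, for the 4 members of lowest p in EGF minus serum over 6 times that had an entry (MAD2L1, CENPF, CDC20 and PLK1) and the 1 of lowest p at the late times (PTTG1). They are the 250 bases before the annotated start, read 5′ to 3′ on the strand of the gene, from RefSeq on GRCh38.p14. Capitals mark every match to TTTGAA or TTTAAA, forms of the cell cycle homology region, and to CCAAT, on either strand, so that TTCAAA and ATTGG are capitals too. PLK1, CDC20 and CENPF had higher signals after EGF than after the serum mixture over the time course, PTTG1 at the 3 late times, and MAD2L1 had lower ones.
PLK1, chr16:23678639-23678888, plus strand: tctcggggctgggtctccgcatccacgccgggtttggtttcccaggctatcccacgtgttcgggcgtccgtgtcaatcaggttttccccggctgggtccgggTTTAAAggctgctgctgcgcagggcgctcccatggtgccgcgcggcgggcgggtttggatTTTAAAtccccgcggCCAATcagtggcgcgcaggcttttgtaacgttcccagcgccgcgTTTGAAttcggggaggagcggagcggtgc
CDC20, chr1:43358731-43358980, plus strand: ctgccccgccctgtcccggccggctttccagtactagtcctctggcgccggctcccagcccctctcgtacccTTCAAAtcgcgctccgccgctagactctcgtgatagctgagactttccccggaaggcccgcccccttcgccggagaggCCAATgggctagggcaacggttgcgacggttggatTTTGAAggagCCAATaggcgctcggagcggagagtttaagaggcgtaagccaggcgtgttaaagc
CENPF, chr1:214602945-214603194, plus strand: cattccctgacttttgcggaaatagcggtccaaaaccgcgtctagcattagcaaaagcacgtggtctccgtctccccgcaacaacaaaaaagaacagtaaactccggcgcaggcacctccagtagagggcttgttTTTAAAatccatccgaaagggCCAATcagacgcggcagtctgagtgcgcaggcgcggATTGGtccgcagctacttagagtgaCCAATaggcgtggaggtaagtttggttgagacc
PTTG1, chr5:160421605-160421854, plus strand: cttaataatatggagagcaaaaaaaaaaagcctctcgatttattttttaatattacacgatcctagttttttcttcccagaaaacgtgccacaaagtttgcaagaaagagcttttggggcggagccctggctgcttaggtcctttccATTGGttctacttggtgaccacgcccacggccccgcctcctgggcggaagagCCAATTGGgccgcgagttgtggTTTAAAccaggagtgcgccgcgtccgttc
MAD2L1, chr4:120066849-120067098, minus strand: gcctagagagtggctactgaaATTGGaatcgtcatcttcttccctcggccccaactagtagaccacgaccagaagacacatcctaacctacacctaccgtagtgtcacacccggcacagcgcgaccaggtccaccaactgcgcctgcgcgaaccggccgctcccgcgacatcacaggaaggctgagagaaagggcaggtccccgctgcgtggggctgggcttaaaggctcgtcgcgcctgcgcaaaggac
Positions count from the annotated start. In PLK1 a TTTGAA begins at -29, and in PTTG1 a TTTAAA begins at the same position. CDC20 has a TTTGAA that begins at -65 and lies between 2 CCAAT boxes, which begin at -100 and -55. In CENPF the TTTAAA begins at -115, upstream of CCAAT matches at -94, -58 and -33. Past the stretch shown, CENPF also has a CCAAT match at 13 and a TTTGAA at 41. MAD2L1 has 1 CCAAT match in this window and no form of the homology region, while a TTTGAA begins at 25, past the stretch shown. The CCAATTGG of PTTG1 counts as 2 overlapping CCAAT matches, 1 on each strand.

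A promoter of 300 bases (250 before and 50 after the start) was at hand for 32 of the 39 members, and AURKA, TTK, BUB3, UBE2C, TPX2, BIRC5 and FOXM1 were not matched. TTTGAA was found in 21 of the 32 (65.6%), against 15.4% of all 27305 promoters of this length. TTTAAA was found in 12 (37.5%, against 12.3%) and CCAAT in 27 (84.4%, against 35.7%). At least 2 CCAAT matches were present in 17 members (53.1%, against 11.3% of all promoters). A form of the homology region together with CCAAT was present in 23 (71.9%, against 9.49%), and 17 had such a form beginning within the last 50 bases before the start (53.1%, against 4.87%). These are counts of letters in a window and not of bound sites. They describe what the members share beyond their names.

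The deposited signals had been scaled to a common trimmed mean, which was 150.04 to 150.05 on all 13 arrays and so says nothing of their likeness. Their medians spread by 0.298 on the log2 scale before normalization, and dim probe sets, those below a signal of 20, made up 33.3% for serum at 20 min and between 36.8% and 40.0% elsewhere. Actin control probes at the 3′ and 5′ ends, whose ratio reflects RNA integrity, gave ratios of 1.79 for the unstimulated array, 1.78 for serum at 120 min and between 1.31 and 1.68 elsewhere. Of 8 markers of basal mammary epithelium, 4 had a probe set of 1 symbol here: KRT5, KRT14, ITGB4 and CDH3 had medians of 12.21, 12.50, 11.17 and 10.95 on the scale explained next, and the other 4 were not analysed here. Of 10 fibroblast, endothelial and blood cell markers, 7 lay below the filter for dim genes, and COL1A1 (median 5.48), PDGFRB (5.06) and CD14 (7.62) passed it. The part of such cells in the results below was not tested.

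Levels are given as log2 of the deposited signal plus 6 after quantile normalization, so a difference of 1 is a doubling of signal plus 6; fold changes are on the same scale and understate the change of dim genes. Over the 13 arrays the members moved little. The range of a member, highest minus lowest array, was 0.30 (CCNB2) to 1.50 (CCNF) with a median of 0.63, against a median range of 0.83 for all 7731 genes. A range over 1 was seen in 5 of 39 members (12.8%: CCNF, MAD2L1, CDK1, AURKA and PLK1), against 35.4% of all genes. The members' mean levels were 6.60 (FOXM1) to 11.09 (PTTG1), while genes were kept from 4.68 up. Ranges were not compared among genes of like brightness, so the members cannot be called steadier than such genes. With bulk RNA, fewer cells in G2 or mitosis and less of each RNA per cell cannot be told apart.

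**Figure D1:**
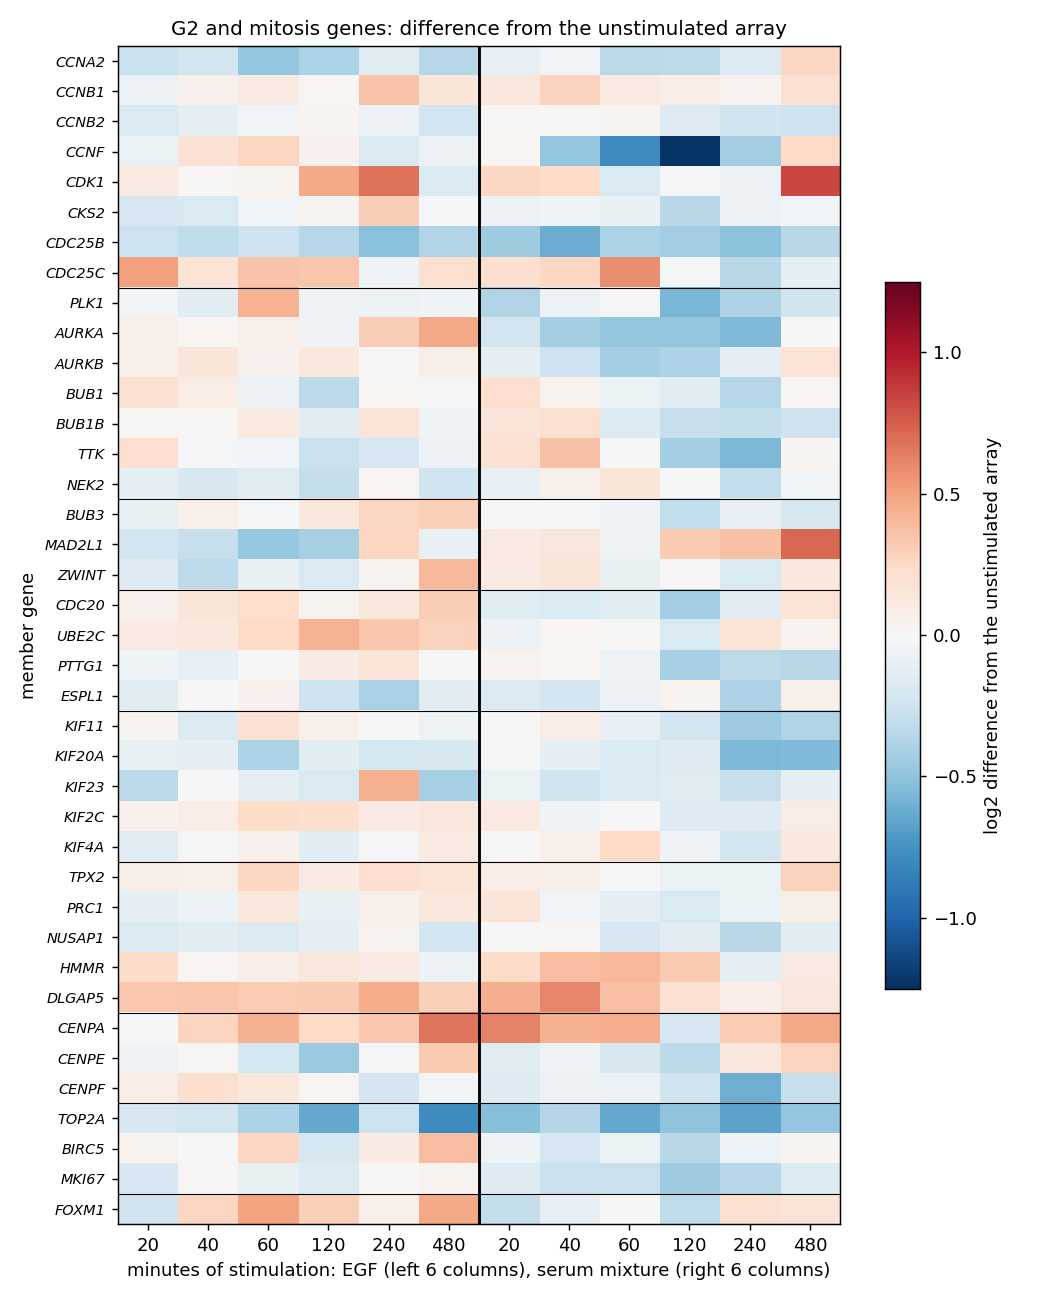
Each cell is 1 member (vertical axis, grouped by role) on 1 stimulated array (horizontal axis, minutes after EGF on the left and after the serum mixture on the right), coloured by its log2 difference from the single unstimulated array. The columns of 120 and 240 min after serum are mostly blue, with medians of -0.21 and -0.22, and the EGF columns of the same times are near white, with medians of -0.04 and 0.05.

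The comparison of EGF with the serum mixture asked whether the composition of the stimulus mattered to these genes. Over the 6 times the members were a little higher after EGF: the median difference was 0.09, against 0.01 over all 7731 genes, and 27 of 39 members (69.2%) lay above 0, against 51.4% of all genes. AURKA, CDC20, CENPF, UBE2C and BIRC5 were higher after EGF at all 6 times, and MAD2L1 was lower at all 6. No member passed an adjusted p of 0.05 by limma over the 7731 genes, where 0.129% of all genes were called. At an unadjusted p under 0.05 the count was 10 members (25.6%; 9 higher and 1 lower), against 20.6% of all genes, so the share of members with a small p was near that of any gene. The 5 members above at all 6 times are 12.8% of the 39, against 6.07% of all genes, and the 1 below at all 6 is set against 6.89%. The median rested in part on 240 min: without either array of that time it was 0.03, and without either array of 480 min 0.13.

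**Figure D2:**
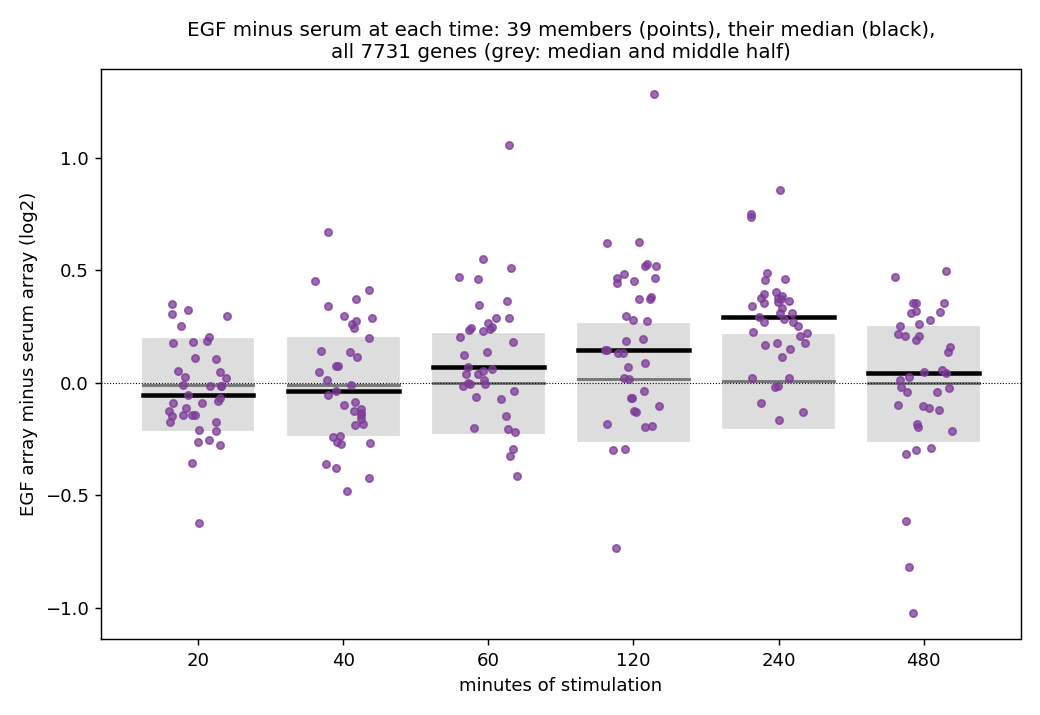
Points are the 39 members, plotted as the EGF array minus the serum array in log2 (vertical axis) at each time in minutes (horizontal axis); black bars are their medians, grey boxes the middle 50% of all 7731 genes and grey lines the medians of all genes. The members' median is -0.06 at 20 min, 0.29 at 240 min and 0.04 at 480 min.

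Time by time, the median difference of the members was -0.06, -0.04, 0.07, 0.15, 0.29 and 0.04 at 20, 40, 60, 120, 240 and 480 min. The number of members higher after EGF was 15, 18, 25, 27, 34 and 22 of 39. The median of all genes stayed between -0.01 and 0.02. The gap between the stimuli was thus widest at 240 min, where 87.2% of members were higher after EGF, against 51.1% of all genes. The serum arrays were the lower ones. Against the unstimulated array the members' median was -0.01, -0.01, -0.08, -0.21, -0.22 and 0.03 on the 6 serum arrays and -0.05, 0.01, 0.05, -0.04, 0.05 and -0.02 on the 6 EGF arrays. On the serum arrays of 120 and 240 min only 6 and 7 of 39 members lay above the unstimulated level, against 49.7% and 51.0% of all genes. At 480 min 23 of 39 did, against 53.8% of all genes. The serum array of 120 min was the one with an actin ratio of 1.78, against 1.44 on the EGF array of 120 min and 1.79 on the unstimulated array. The part of RNA integrity in that pair, or in the differences from the unstimulated array, was not tested. At 240 min, where the gap was widest, the ratios of the 2 arrays were 1.45 and 1.40.

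At the late times (120, 240 and 480 min) the median difference was 0.18, against 0.01 over all genes, and 32 of 39 members (82.1%) lay above 0, against 51.2% of all genes. Again 0 members passed an adjusted p of 0.05, where 0.75% of all genes did. At an unadjusted p under 0.05 there were 11 members (28.2%; 10 higher and 1 lower), against 18.9% of all genes. At all 3 late times 19 of 39 members were higher after EGF (48.7%), against 21.7% of all genes, and ESPL1 and MAD2L1 were lower at all 3 (5.13%, against 19.8%). The late median was 0.14 to 0.24 when any 1 array, or both arrays of 20, 120 or 240 min, were left out.

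At the early times (20, 40 and 60 min) the median was 0.01 and 20 of 39 members lay above 0. No member passed the adjusted threshold, and 0% of all genes did. Unadjusted, 5 members had a p under 0.05 (12.8%; 4 higher and 1 lower), against 14.4% of all genes. At all 3 early times 10 members were higher after EGF (25.6%, against 19.5% of all genes) and 10 were lower (25.6%, against 21.3%). Early, then, the members fell about evenly on both sides, as genes at large did.

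Among the mitotic kinases, AURKA, which matures centrosomes and builds the spindle, had the lowest p of any member. It stood at 9.33 on the unstimulated array. After EGF it was at 9.39, 9.36, 9.39, 9.29, 9.63 and 9.80 from 20 to 480 min, and after serum at 9.10, 8.91, 8.84, 8.84, 8.78 and 9.34. EGF was higher in 6 of 6 pairs, by 0.29 to 0.86, although the serum array of 480 min reached above the EGF array of 120 min. The mean difference was 0.51 (SE 0.09, 95% interval 0.31 to 0.72, 1.43-fold, adjusted p = 0.0605) over 6 times, 0.43 (SE 0.12, adjusted p = 0.23) early and 0.59 (SE 0.12, adjusted p = 0.0836) late. Its other bright probe set gave 0.13 with EGF higher in 3 of 6 pairs, and with the mean of the gene's probe sets the difference was 0.22 (adjusted p = 0.48).

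PLK1, the kinase of centrosome maturation and mitotic entry, was higher after EGF in 5 of 6 pairs. Its values were 7.94, 7.84, 8.41, 7.93, 7.90 and 7.93 after EGF and 7.59, 7.90, 7.95, 7.40, 7.59 and 7.72 after serum, against 7.97 unstimulated. The mean difference was 0.30 (SE 0.09, adjusted p = 0.149). AURKB, the kinase of the chromosomal passenger complex, differed by 0.27 (SE 0.10, adjusted p = 0.204), with EGF higher at 5 of 6 times. The differences were -0.13 for NEK2, which separates centrosomes, 0.03 for BUB1 and 0.13 for BUB1B, which act in the checkpoint, and 0.00 for TTK, the kinase that starts the checkpoint. BUB1 ran at 8.28, 8.18, 8.02, 7.75, 8.11 and 8.07 after EGF and 8.29, 8.13, 8.01, 7.95, 7.74 and 8.11 after serum, against 8.09 unstimulated, and the courses overlapped.

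Of the 4 regulators of anaphase, CDC20 and UBE2C were higher after EGF at all 6 times. CDC20, the activator of the anaphase-promoting complex, was at 9.51, 9.61, 9.68, 9.50, 9.59 and 9.77 after EGF and at 9.31, 9.27, 9.31, 9.03, 9.32 and 9.63 after serum, with 9.46 unstimulated. All 6 EGF arrays lay above the unstimulated level and 5 of 6 serum arrays below it. The mean difference was 0.30 (SE 0.08, adjusted p = 0.103). UBE2C, the ubiquitin-conjugating enzyme of that complex, was higher after EGF by 0.12 to 0.63 in the 6 pairs, with a mean of 0.26 (SE 0.09, adjusted p = 0.168). Its values were 9.54, 9.57, 9.68, 9.87, 9.78 and 9.72 after EGF and 9.36, 9.45, 9.45, 9.25, 9.60 and 9.47 after serum, against 9.43 unstimulated. On all 6 EGF arrays it lay above the unstimulated level. For CDC20 and UBE2C alike, the share of all genes lying so about the single unstimulated array was not counted.

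PTTG1 encodes securin, which keeps separase inactive. After EGF it was at 11.11, 11.06, 11.15, 11.26, 11.32 and 11.17, and after serum at 11.20, 11.19, 11.10, 10.74, 10.83 and 10.81, against 11.16 unstimulated. The 3 late serum arrays lay below every other array, and the late arrays of the 2 stimuli did not overlap. The share of all genes with such a separation was not counted. The late difference was 0.45 (SE 0.10, 95% interval 0.22 to 0.69, adjusted p = 0.0896), and the pairs gave 0.52, 0.49 and 0.36. This probe set is of a kind that can also bind near-identical copies of the gene, so the gene of origin is uncertain. ESPL1, separase itself, differed by -0.02 over the 6 times and was lower after EGF at the 3 late ones. It had levels of 7.60, 7.76, 7.81, 7.50, 7.36 and 7.62 after EGF and 7.58, 7.51, 7.69, 7.80, 7.37 and 7.82 after serum, against 7.76 unstimulated, and those of the stimuli overlapped.

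Of the checkpoint adaptors, BUB3 and MAD2L1 lay on opposite sides. BUB3, the scaffold that brings BUB1 to kinetochores, was at 10.21, 10.36, 10.29, 10.43, 10.56 and 10.59 after EGF and at 10.29, 10.29, 10.25, 9.99, 10.20 and 10.10 after serum, against 10.30 unstimulated. Its late arrays did not overlap between the stimuli either, again without a count of all genes that do the same. The late difference was 0.43 (SE 0.09, adjusted p = 0.0916). That value rests on a probe set that can bind related sequences: 2 other bright sets gave 0.37 and 0.18 late, and another gave -0.27, so the gene-level value is uncertain.

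MAD2L1, which in its active form binds CDC20 and stops it, was the member furthest below 0. It was at 8.31, 8.26, 8.08, 8.14, 8.82 and 8.45 after EGF and at 8.66, 8.69, 8.49, 8.87, 8.91 and 9.27 after serum, with 8.55 unstimulated. Serum was higher in 6 of 6 pairs, by 0.09 at 240 min and by 0.36 to 0.82 at the other times. The mean difference was -0.47 (SE 0.11, 95% interval -0.72 to -0.22, 1.39-fold, adjusted p = 0.0865). ZWINT, a kinetochore protein, ran from -0.48 at 40 min to 0.28 at 480 min. It lay between 8.84 (40 min) and 9.57 (480 min) after EGF and at 9.26, 9.32, 9.08, 9.16, 8.98 and 9.29 after serum, against 9.16 unstimulated, with its highest array at 480 min of EGF.

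**Figure D3:**
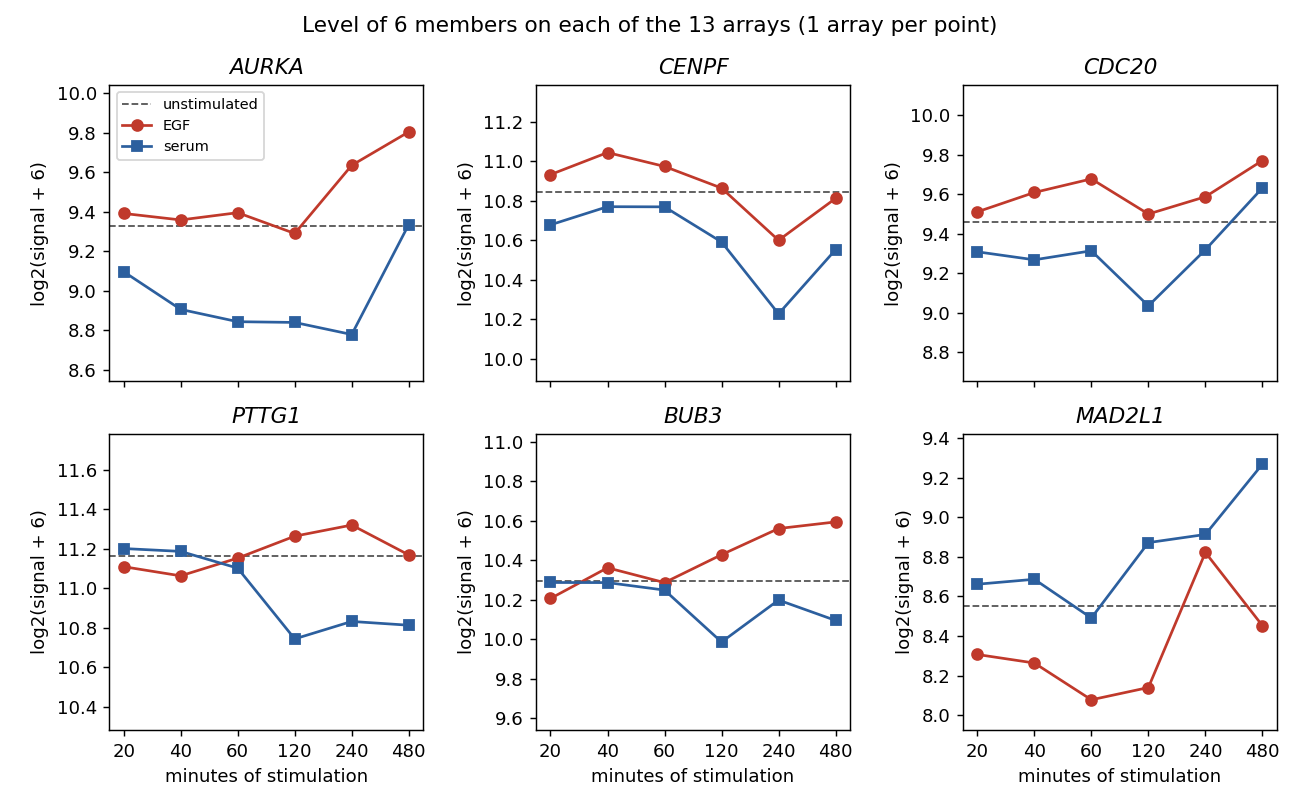
Levels of 6 members as log2 of signal plus 6 (vertical axis) against minutes of stimulation (horizontal axis); red circles are EGF arrays, blue squares serum arrays, 1 array per point, and the dashed line is the single unstimulated array. EGF lies above serum at all 6 times for AURKA, CENPF and CDC20 and below it at all 6 for MAD2L1; for PTTG1 and BUB3 the difference is 0.36 to 0.52 at the 3 late times and -0.12 to 0.07 at the early ones.

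Among centromere proteins, CENPF, a large protein of the outer kinetochore, had a very even gap. It was at 10.93, 11.04, 10.97, 10.86, 10.60 and 10.81 after EGF and at 10.68, 10.77, 10.77, 10.59, 10.23 and 10.55 after serum, against 10.84 unstimulated. The 6 pairs differed by 0.20 to 0.37, with a mean of 0.27 (SE 0.07, adjusted p = 0.0994). Its 2 other probe sets above the filter gave -0.36 and -0.07, and with the mean of the probe sets the sign turned (-0.05, adjusted p = 0.746). CENPA, the centromeric histone, differed by -0.02 over the 6 times, and CENPE, a kinetochore motor, by -0.01. The values of CENPA were 6.30, 6.59, 6.75, 6.56, 6.64 and 6.97 after EGF and 6.92, 6.75, 6.75, 6.09, 6.62 and 6.78 after serum, against 6.30 unstimulated. For CENPE they were 8.57, 8.62, 8.39, 8.14, 8.58 and 8.93 after EGF and 8.46, 8.55, 8.40, 8.27, 8.75 and 8.89 after serum, against 8.61 unstimulated, and both genes had overlapping courses. CENPA was read by a probe set that may bind related sequences.

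The chromosome and proliferation proteins were all above 0. MKI67, which coats mitotic chromosomes and serves as a proliferation marker, was at 9.35, 9.57, 9.47, 9.39, 9.56 and 9.61 after EGF and at 9.40, 9.28, 9.29, 9.12, 9.20 and 9.39 after serum, with 9.56 unstimulated. The difference was 0.21 (SE 0.08, adjusted p = 0.203), with EGF higher in 5 of 6 pairs. Its other 3 probe sets gave 0.36, 0.31 and 0.18, each with EGF higher in 6 of 6 pairs, so all 4 sets of this gene pointed the same way. BIRC5, or survivin, of the passenger complex, differed by 0.22 (SE 0.07, adjusted p = 0.172), and its other bright sets by 0.17 and 0.06. On the brightest it lay at 7.84, 7.79, 8.07, 7.58, 7.91 and 8.19 after EGF and 7.74, 7.59, 7.72, 7.45, 7.74 and 7.84 after serum, against 7.80 unstimulated. The courses overlapped, although each pair had EGF above serum. TOP2A, which untangles sister DNA, differed by 0.11, with another set at -0.09.

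FOXM1, the transcription factor of many of these genes, differed by 0.29 (SE 0.11, adjusted p = 0.207) on a probe set that may bind related sequences. It was at 6.53 unstimulated, between 6.28 (20 min) and 7.03 (60 min) after EGF and at 6.23, 6.43, 6.52, 6.21, 6.72 and 6.69 after serum. EGF was higher at 5 of 6 times, with 240 min the exception.

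The cyclins, CDK1 partners and phosphatases had a median of 0.05, with 5 of 8 above 0. The pair differences over 1 in size were those of CCNF at 60 and 120 min and of CDK1 at 480 min. At 120 and 480 min the other probe sets of these genes did not share them. CDK1, the kinase of mitotic entry, was at 10.11 on the serum array of 480 min and at 9.09 on the EGF array, a pair difference of -1.02. On its 2 other sets that pair differed by 0.17 and 0.10. The brightest set gave 9.39, 9.29, 9.31, 9.74, 9.95 and 9.09 after EGF and 9.53, 9.53, 9.08, 9.26, 9.20 and 10.11 after serum, against 9.28 unstimulated, so the serum array of 480 min was the highest and the EGF array of 240 min came next. CCNF, a substrate receptor of an SCF ubiquitin ligase, was at 5.80 on the serum array of 120 min, 1.28 below EGF, and its other set had EGF 0.16 below serum there (-0.16). CCNA2, cyclin A2, was 0.61 below serum at 480 min (-0.61) and 0.29 above it on its other set. CCNB1 and CCNB2, the B cyclins, differed by -0.04 and 0.00, and CKS2, a small CDK-binding subunit, by 0.09. CCNB2, the member of smallest range, was at 9.23, 9.30, 9.39, 9.46, 9.35 and 9.18 after EGF and 9.44, 9.42, 9.46, 9.26, 9.17 and 9.16 after serum, against 9.42 unstimulated.

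The kinesins and the spindle and midzone proteins followed the late pattern with small sizes. All 5 kinesins lay above 0 late, by 0.03 (KIF4A) to 0.36. KIF11, the motor that pushes spindle poles apart, had the largest late difference of them (0.36, SE 0.13, adjusted p = 0.216). It was at 8.18, 7.97, 8.33, 8.21, 8.15 and 8.08 after EGF and 8.14, 8.24, 8.04, 7.91, 7.69 and 7.77 after serum, against 8.15 unstimulated. The late arrays of the stimuli did not overlap. That was so for other members too, among them PLK1, UBE2C and, narrowly, CENPF, and for MAD2L1 with serum higher. How many of all genes show such a separation was not counted, so it is not read as a trait of the members. KIF20A and KIF23, motors of the midzone and of cytokinesis, were 0.34 and 0.74 higher after EGF at 240 min, and KIF2C, a microtubule depolymerase, 0.27. KIF4A, a chromosome-bound motor, was higher only at 240 min (0.21). KIF20A stood at 9.23, 9.22, 8.93, 9.19, 9.11 and 9.13 after EGF and 9.32, 9.20, 9.13, 9.17, 8.76 and 8.78 after serum, against 9.33 unstimulated, with its lowest arrays at 240 and 480 min of serum. KIF4A stood at 7.46, 7.59, 7.66, 7.47, 7.59 and 7.72 after EGF and 7.60, 7.68, 7.86, 7.57, 7.39 and 7.74 after serum, against 7.61 unstimulated, with overlapping courses. Of the 5 spindle and midzone proteins 4 lay above 0 late, and all 5 were higher after EGF at 240 min. TPX2, which activates AURKA, was 0.29 higher there. PRC1, which bundles midzone microtubules, was 0.15 higher and NUSAP1, a microtubule-binding protein, 0.40. HMMR, a spindle protein and hyaluronan receptor, was 0.22 higher and DLGAP5, which stabilises kinetochore fibres, 0.38. The NUSAP1 values were 9.50, 9.55, 9.50, 9.57, 9.72 and 9.43 after EGF and 9.68, 9.69, 9.46, 9.55, 9.33 and 9.54 after serum, against 9.68 unstimulated. The HMMR values were 9.46, 9.26, 9.32, 9.37, 9.33 and 9.15 after EGF and 9.47, 9.62, 9.64, 9.56, 9.11 and 9.34 after serum, against 9.23 unstimulated, and at the other 5 times EGF lay below serum.

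A direct test of whether the late-minus-early difference varied with the stimulus gave a median of 0.13 over the members, against 0.02 over all genes, with 29 of 39 (74.4%) above 0, against 52.1%. No member passed the adjusted threshold, where 0.0259% of all genes did. Unadjusted, 3 members had a p under 0.05 (7.69%), against 11.1% of all genes: PTTG1 (0.51, SE 0.14, adjusted p = 0.316), BUB3 (0.42, SE 0.13, adjusted p = 0.371) and DLGAP5 (0.37, SE 0.15, adjusted p = 0.436). CENPA followed (0.49, SE 0.21, adjusted p = 0.455). With the probe sets of BUB3 averaged, its value was 0.05 (adjusted p = 0.915). So no member's gap passed the test of a change with time.

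The comparison of late with early arrays asked how the genes moved over the course. Pooled over both stimuli the median was -0.04, against 0.02 over all genes, and 15 of 39 members lay above 0 (38.5%, against 52.8%). No member passed an adjusted p of 0.05, whereas 268 of all 7731 genes (3.47%) did. Unadjusted, 7 members had a p under 0.05 (17.9%; 1 higher late and 6 lower), against 23.9% of all genes. No member had all 6 late arrays above all 6 early ones, or below them; 1.16% and 1.67% of all genes did. The members' median was 0.04 without both arrays of 120 min, so its sign rested on that time.

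**Figure D4:**
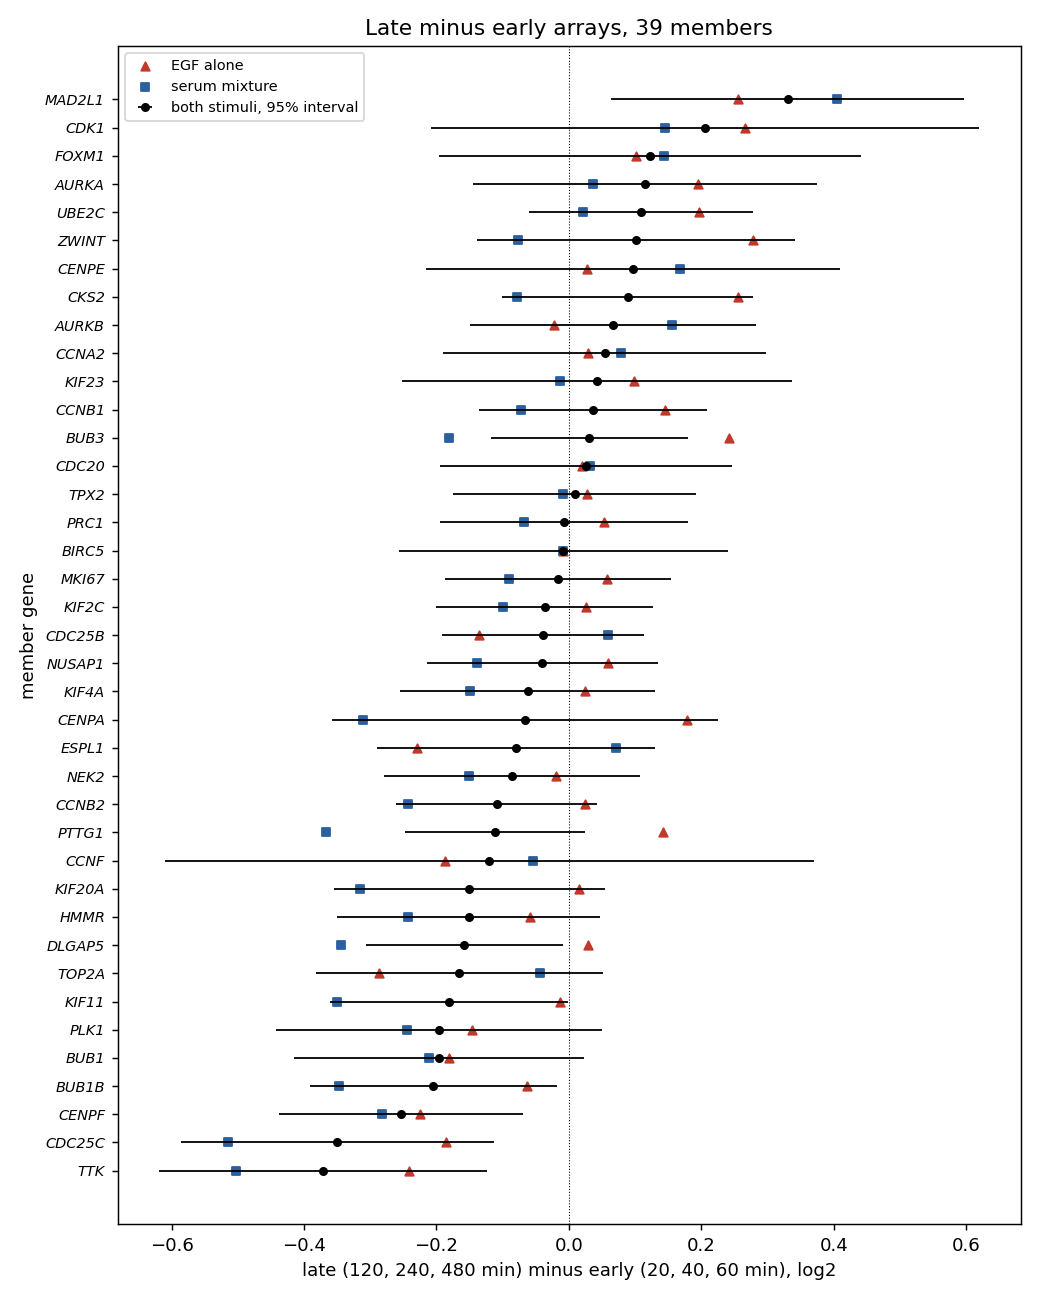
The mean of the late arrays minus the mean of the early arrays in log2 (horizontal axis) for each member (vertical axis, ordered by the pooled value); black points with bars are both stimuli with the 95% interval of the fit, red triangles EGF alone and blue squares serum alone. The pooled values run from -0.37 for TTK to 0.33 for MAD2L1, and the serum squares lie left of the EGF triangles for 29 of 39 members.

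TTK was at 8.25, 8.03 and 8.01 early and 7.77, 7.84 and 7.97 late after EGF, and at 8.23, 8.41 and 8.05 early and 7.62, 7.48 and 8.08 late after serum, with 8.05 unstimulated. The serum array of 480 min lay among the early values. The pooled difference was -0.37 (SE 0.11, adjusted p = 0.0843), and without that array it was -0.46 (adjusted p = 0.0377). CDC25C, the phosphatase that activates CDK1, differed by -0.35 (SE 0.11, adjusted p = 0.0863). It was at 7.29, 6.95 and 7.14 early and 7.13, 6.72 and 6.98 late after EGF, and at 6.99, 7.04 and 7.36 early and 6.75, 6.43 and 6.66 late after serum. A further bright set of CDC25C gave -0.35 as well, but a dim set gave 0.40, and with all 3 sets averaged the difference was -0.10 (adjusted p = 0.719). CENPF followed at -0.25 (SE 0.08, adjusted p = 0.103), and BUB1B at -0.20, with values of 8.93, 8.93 and 9.03, then 8.77, 9.07 and 8.86 after EGF and of 9.07, 9.11 and 8.74, then 8.62, 8.61 and 8.65 after serum. MAD2L1 alone among those of small p was higher late (0.33, SE 0.12, adjusted p = 0.129).

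Late minus early was also taken within each stimulus. Counts set side by side here are not a test of a difference between the stimuli, and the direct test above called no member. After EGF the median was 0.03 and 24 of 39 members lay above 0 (61.5%, against 53.8% of all genes). None passed the adjusted threshold, where 0.246% of all genes did. Only BUB3 (0.24, SE 0.10, adjusted p = 0.291) had an unadjusted p under 0.05 (2.56% of members, against 14.5% of all genes). CKS2 (0.25, SE 0.12), TOP2A (-0.29, SE 0.14) and CENPF (-0.22, SE 0.12) followed, with adjusted p of 0.362, 0.368 and 0.41. After serum the median was -0.08 and 28 of 39 lay below 0, with 11 above it (28.2%, against 50.8% of all genes). Again 0 passed, where 1.33% of all genes did. There 10 members had an unadjusted p under 0.05 (25.6%; 9 lower and MAD2L1 higher), against 20.2% of all genes.

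The lowest p of the serum course was that of PTTG1 (-0.37, SE 0.09, 95% interval -0.56 to -0.17, adjusted p = 0.0622). DLGAP5 (-0.34, SE 0.10, adjusted p = 0.0872), CDC25C (-0.51, SE 0.15, adjusted p = 0.0996) and TTK (-0.50, SE 0.16, adjusted p = 0.117) came next. With its probe sets averaged, CDC25C was at -0.24 (adjusted p = 0.547). After EGF, DLGAP5 stood at 8.60, 8.61, 8.58, 8.59, 8.73 and 8.56 over the 6 times. After serum, it stood at 8.72, 8.88 and 8.65 by 60 min and at 8.46, 8.35 and 8.40 later, so that the later 3 arrays lay below the earlier 3. The median of the serum course was -0.17 without the serum array of 480 min, since many members were back near the unstimulated level on that array. It was -0.11 to -0.05 when any other array, or both arrays of 20, 120 or 240 min, were left out.

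A straight line was also fitted on the logarithm of time. The median slope per doubling of time was 0.01 over the members and 0.01 over all genes, and 0 members passed, where 3.44% of all genes did. Unadjusted, 5 members had a p under 0.05 (12.8%), against 23.6% of all genes. MAD2L1 had a slope of 0.11 (SE 0.04, adjusted p = 0.119) and CDC25C of -0.10 (SE 0.04, adjusted p = 0.141), or of -0.0081 (adjusted p = 0.94) with its probe sets averaged. CENPF and KIF20A each had -0.07 (SE 0.03, adjusted p = 0.17 and 0.173).

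Against the unstimulated array, which was alone and whose error all 6 comparisons share, no member passed at any time. The share of all genes that passed was 0.0259% at 20 min, 0.0776% at 40 and at 60 min, 0.0259% at 120 min and 0% at 240 and at 480 min. With an unadjusted p under 0.05 there were 0, 1, 0, 3, 2 and 1 members at the 6 times, all of them lower than unstimulated, against 5.9%, 7.04%, 7.44%, 9.2%, 9.74% and 11.7% of all genes. The members' median was -0.04, -0.04, -0.01, -0.13, -0.07 and 0.04, and 14, 16, 18, 9, 13 and 22 of 39 lay above the unstimulated level. Of all genes 48.8% to 53.5% lay above it. At 240 min the mean hid the split of the stimuli: it was -0.25 without the EGF array of that time and 0.04 without the serum array.

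CDC25B, KIF20A and TOP2A lay below the unstimulated array on all 12 stimulated arrays (3 of 39, 7.69%, against 7.49% of all genes). CDC25B, the phosphatase that starts CDK1 activation at the centrosome, was at 9.67 unstimulated. After EGF it was at 9.40, 9.35, 9.41, 9.31, 9.14 and 9.29, and after serum at 9.22, 9.05, 9.27, 9.24, 9.16 and 9.32. The difference was largest at 240 min (-0.52, SE 0.16, adjusted p = 0.385) and 40 min (-0.47, SE 0.16, adjusted p = 0.602). TOP2A was at 10.16 unstimulated, at 9.95, 9.93, 9.77, 9.52, 9.89 and 9.37 after EGF and at 9.63, 9.79, 9.53, 9.65, 9.49 and 9.67 after serum. At 480 min it differed by -0.64 (SE 0.23, adjusted p = 0.365). On another set of TOP2A, 8 of 12 arrays lay below. DLGAP5 was the 1 member above on all 12 arrays (2.56%, against 7.55% of all genes), by 0.08 to 0.61, with 8.27 unstimulated. The share below on all 12 is close to that of genes at large and the share above is smaller than theirs. A single array can place a gene in either count.

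How far a member's value depends on its probe set could be checked for 16 members, which had several sets. Of 23 other sets above the filter, 15 had the same sign of EGF minus serum as the brightest set, 15 at the late times, and 17 for late minus early. The correlation of such a set with the brightest over the 13 arrays was -0.26 to 0.84, with a median of 0.34. KIF2C, MKI67 and CDC25C had sets that ran together (r = 0.84, 0.80 and 0.77 for the closest). NUSAP1, at 0.01 on its brightest set, had EGF higher in 6 of 6 pairs on another, with a mean of 0.31.

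**Figure D5:**
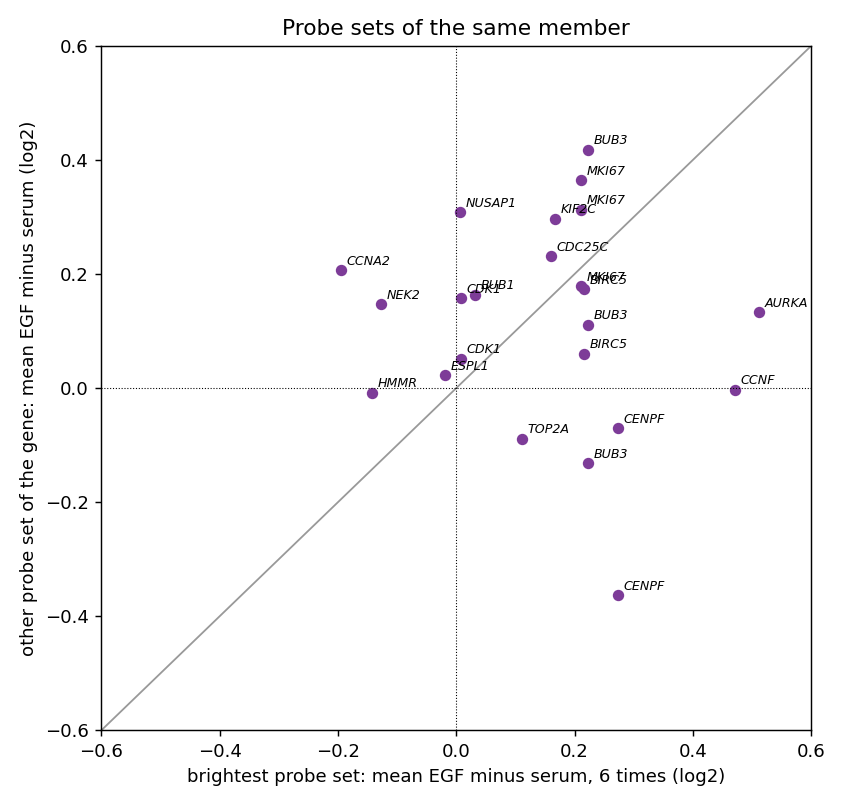
Each point is a further probe set of a member above the filter, plotted as its mean EGF minus serum over 6 times in log2 (vertical axis) against that of the brightest set of the same gene (horizontal axis); the diagonal marks equal values. Of the 23 points, 15 have the same sign on both axes, and 1 set of CENPF lies furthest below (-0.36 against 0.27).

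Correlations between members ranged widely. Over the 13 arrays, which share time and stimulus, the 741 pairs of members had a median r of 0.21, and 73.3% were above 0. The highest was that of AURKB with CCNF (0.90) and the lowest that of CENPF with MAD2L1 (-0.81). The r of a member with the mean of the other 38 was over 0.5 for 18 members, with MKI67 (0.79), TPX2 and KIF2C (both 0.76) at the top. It was below 0 for HMMR (-0.11) and MAD2L1 (-0.33). None of these correlations was set against those of genes at large, which were not computed. Further probe sets of a member had a median r of only 0.34 with its brightest set. The values therefore cannot show whether the members moved together. Of genes outside the group, those closest to the members' mean were TRIM68 (r = 0.89), OTUB2 (0.89), MCM6 (0.86), NIF3L1 (0.84), RAPGEF5 (0.84), BDH1 (0.84), POLR2G (0.83), SC5D (0.83), ZWILCH (0.83) and MPHOSPH9 (0.81). They were picked as the highest over all tested genes outside the group. MCM6 is a subunit of the replicative helicase and ZWILCH a kinetochore protein, and the roles of the others were not examined.

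Other genes of G2 and mitosis were taken from 6 lists with 118 genes, of which 101 had a probe set and 96 were tested. Late minus early over both stimuli, 1 of the 96 was called higher and 1 lower (2.08%, against 3.47% of all genes), a share below that of genes at large. SFN, the 14-3-3 protein that keeps CDK1 out of the nucleus after DNA damage, rose (0.37, SE 0.07, adjusted p = 0.0201), and within the serum course it rose by 0.53 (SE 0.09, adjusted p = 0.0301). PLK2, a stress-linked relative of PLK1, fell by 0.79 (SE 0.19, adjusted p = 0.0448). It was at 8.48 unstimulated, at 9.51, 9.80 and 9.92 early and 8.68, 9.04 and 8.58 late after EGF, and at 9.61, 9.99 and 10.15 early and 9.91, 9.28 and 8.75 late after serum. In EGF minus serum, late, 1 of 96 was called (1.04%, against 0.75% of all genes): GADD45B, a stress sensor that can hold CDK1 inactive, was lower after EGF (-1.99, SE 0.21, 3.98-fold, adjusted p = 0.0202). It was at 6.71, 6.66 and 5.54 late after EGF and at 9.01, 8.37 and 7.51 after serum, with 6.53 unstimulated.

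All 3 of these belong to the list of G2 arrest genes, of which 8 were tested. In late minus early over both stimuli 2 of the 8 were called (25%, against 3.47% of all genes). In EGF minus serum, late, 1 was (12.5%, against 0.75%). The lists were chosen with earlier results of these data known, so no result about this list is drawn from these shares. The other 5 lists had 0 calls by limma in these comparisons, and over all 6 lists 21 genes had an unadjusted p under 0.05 when late and early arrays were compared (21.9%, against 23.9% of all genes). In EGF minus serum 29 did over 6 times (30.2%, against 20.6%) and 20 at the late times (20.8%, against 18.9%). Condensin and cohesin subunits, which shape and tie the chromatids, were higher after EGF late in 14 of 16 cases (87.5%, against 51.2% of all genes), with a median of 0.16. Of them 3 had an unadjusted p under 0.05 (18.8%, against 18.9% of all genes), a share like that of genes at large. Of 32 other kinetochore, spindle and cytokinesis genes 24 were higher after EGF late (75%, against 51.2% of all genes), with a median of 0.12. The DREAM, MuvB, MYB and FOXM1-linked regulators were 7 of 14 above 0 (median 0.11), the other G2/M kinases and phosphatases 6 of 12 (0.02) and the APC/C, SCF and cohesin-cleavage genes 6 of 14 (-0.02). Over all 96 the late median was 0.08, against 0.01 over all 7731 genes.

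Calls of members depended on how the variance was modelled. With a mean-variance trend and robust variances, 4 of 39 passed in EGF minus serum over 6 times (AURKA, CDC20, CENPF and MAD2L1; 10.3%, against 5.55% of all genes), and 6 of 39 at its late times (AURKA, BUB3, CENPF, MAD2L1, PTTG1 and UBE2C; 15.4%, against 7.18%). With the plain fit no member was called in any of the 14 comparisons, and no member's fitted difference reached 1 in size.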

How the data were processed

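RNA from MCF10A cells was measured on 13 Affymetrix arrays of 22277 probe sets. The values deposited by the authors are intensities, MAS5 signals on a linear scale per the submitters' processing notes, with no version named there. Groups and times came from the sample titles.

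Signals were transformed as log2(signal + 6), the offset being the 20th percentile of all values. Because array medians spread over 0.298 (limit 0.2), quantile normalization was applied (limma 3.58.1, R 4.3.3). Among the 19064 probe sets with 1 symbol, 19052 matched the RefSeq gene table by Entrez number. The brightest set stood for each gene. Genes at or above the 40th percentile of probe set means (4.68) were kept. Probe sets with several symbols (1043) or none were left out.

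Linear models were fitted with limma (lmFit, eBayes) across the 7731 kept genes, and each comparison's two-sided p-values received the Benjamini-Hochberg adjustment (threshold 0.05). Late minus early used 4 means of stimulus by phase (8 residual degrees of freedom), EGF minus serum and the interaction had time as a block (5 over the 6 times, 4 for early, late and the interaction), the slope on log2 time had stimulus as a term (9), and each time was set against the unstimulated array in an additive model (5), which assumes that the lone array varies like the others. The fits were tested on simulated data with independent noise and no change over time within a phase. That test does not cover such changes in the real arrays. Values on every array are given for up to 3 members of each role list by lowest p in late minus early (ranges over EGF for ZWINT and FOXM1), and for further members chosen after their values were seen. Statistics are given for the 4 of lowest p in most comparisons, other pathway genes are named where past the threshold, and the 10 genes whose r with the members' mean was highest are named. The members and lists were chosen with earlier results of these data known, and the 6 members plotted by time were chosen after their values were seen. Alternatives tried were no offset with signals floored at 1, an offset of 24, unnormalized arrays, a filter at the 60th percentile or none, averaging all probe sets per gene, robust variances with a trend, other codings of time, and leaving out each array. Leaving out both arrays of 20, 120 or 240 min was added after seeing the data. Python 3.11.15 (pandas 2.3.3, numpy 2.4.6) wrote the sequence tables, and matplotlib 3.10.9 the figures.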

Additional observations from a re-analysis of the deposited data

Results flagged for a closer look

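In 2 of 78 groups of 6 arrays examined (the early and the late arrays of each member), 1 array stood apart from the other 5 by Dixon's criterion; chance alone gives about 1 such group in 20. Among the late arrays of KIF23, a motor of the spindle midzone, the EGF array of 240 min was highest at 8.93, with the next at 8.36, a gap of 0.662 of the whole range. Among the early arrays of TPX2, which activates AURKA on the spindle, the EGF array of 60 min was highest at 9.86, with the next at 9.69, a gap of 0.648 of the range.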

How the results depend on the processing

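The number of members past the threshold was 0 in every comparison as reported and was above 0 in some under the settings below; the cause was not tested. Each count is given with its share of the 39 members and the share of all genes called. With 4 times the offset it was 1 in EGF minus serum over 6 times (AURKA; 2.56%, against 2.03%) and 1 at its late times (AURKA; 2.56%, against 2.16%). With the filter at the 60th percentile, which left 5588 genes to test, it was 2 in late minus early over both stimuli (TTK and CDC25C; 5.13%, against 10.3%) and 1 in its serum part (PTTG1; 2.56%, against 5.19%), both below the share of all genes. There it was 2 in EGF minus serum over 6 times (AURKA and MAD2L1; 5.13%, against 4.08%) and 3 at its late times (AURKA, BUB3 and PTTG1; 7.69%, against 5.12%). With a variance trend and robust variances it was 2 in late minus early over both stimuli (TTK and CENPF; 5.13%, against 8.30%) and 1 in its serum part (PTTG1; 2.56%, against 5.34%), again below. It was 1 in the interaction (PTTG1; 2.56%, against 0.905%), 1 in EGF minus serum at the early times (AURKA; 2.56%, against 2.30%), 4 over 6 times (10.3%, against 5.55%) and 6 at the late times (15.4%, against 7.18%). Without time as a block it was 2 at the late times (BUB3 and PTTG1; 5.13%, against 1.89%). With each array left out, it was 0 to 1 in late minus early over both stimuli (TTK, without the serum array of 480 min; 2.56%, against 2.37%). AURKA in EGF minus serum over 6 times was at 0.22 to 0.56 over all alternatives, with adjusted p of 0.00328 to 0.48. When all probe sets of a gene were averaged, 3 values turned in sign: CENPF in EGF minus serum over 6 times (-0.0537) and early (-0.0715), and BIRC5 at 120 min against unstimulated (0.0452). With each array left out, the members' median at 240 min against unstimulated ran from -0.252 to 0.0378 and the median slope from -0.0175 to 0.0226. Among the other alternative values, 317 medians and 305 counts moved no further than the spread or 1.5 times, 1247 values of named members kept their direction and side of the threshold, and 26 moved past it in the settings above. No paired analysis by replicate was possible because the labels give no replicate numbers; the time pairs served as the block. With 1 array per condition and no replicates, differences near the members' median 95% half-width of 0.22 in EGF minus serum over 6 times could not be told from 0. That half-width was 0.29 at the early and at the late times and 0.47 against the unstimulated array. It leaves out the adjustment for many genes. Larger differences were not called by the plain limma fit either, such as that of AURKA (0.51, adjusted p = 0.0605).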
